A study of Mus musculus with 4 samples.

Results

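The nuclear genes of respiratory complexes II, III and IV and of ATP synthase, complex V, were examined in mouse cybrid fibroblasts that differ in their mitochondria. Genes were taken by symbol (Sdh, Uqcr, Cox with a digit, Atp5), without the tissue isoforms of cytochrome oxidase subunits 4, 6a, 6b, 7a and 8 that come in pairs and without genes of mitochondrial DNA. This gave 50 of the 19088 genes measured, read by 77 spots: 8 genes of complex II, 8 of complex III, 17 of complex IV and 17 of complex V. All 50 were found in the RefSeq gene table by gene ID.

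Cybrids combine donor mitochondria with the nucleus of cells that were first freed of mitochondrial DNA. Both lines here are LMEB3 fibroblasts at passage 3: LMEB3(mtBALB), called mutant in the study, with mitochondria of BALB/cJ mice, and LMEB3(mtB6), the control, with mitochondria of C57BL/6J mice. There were 4 two-colour arrays, each with RNA of an mtBALB and an mtB6 culture of the same replicate number, described as biological replicates of independent clones. On replicates 1 and 3 the mtB6 RNA carried Cy5, and on replicates 2 and 4 the mtBALB RNA did. Both lines were grown in high-glucose medium with serum, in which respiration is not the only source of ATP. In bulk RNA a different share of cells and a different amount of RNA per cell cannot be told apart.

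Complex II oxidizes succinate and passes the electrons to ubiquinone, and it is made from nuclear genes alone. Complexes III, IV and V also hold subunits encoded in mitochondrial DNA, so that their nuclear subunits are built together with products of the genome in which these lines differ. Complex III hands electrons to cytochrome c, complex IV reduces oxygen, and complex V makes ATP from the proton gradient. Assembly factors insert heme, copper and iron-sulfur groups and guide the mitochondrially encoded subunits into place.

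All values are the authors' deposited log ratios, taken as log2 and averaged over the spots of a gene. Which line forms the numerator is not given in the sources, so a value is given as positive or negative and no line is named as higher. The ratios were taken as already turned to 1 direction on all arrays. The alternative, called not turned, reverses the sign of replicates 2 and 4. Arrays are centred near 0, with medians over all spots between -0.0033 and 0.0051. On each array 53.7% to 56% of spots had a value shared exactly by 3 or more spots, and such spots are called dim here, although brightness itself was not analysed. Of the 50 genes, 47 had at least 1 spot that was dim on no array, whereas Cox7b2, Cox8c and Atp5o had none. Ratios hold no level, so the labelled cell type could not be checked by the level of its markers, and dim spots are only a rough stand-in. Among the measured markers, 6 of 8 of fibroblasts had a spot that was never dim. The same held for 0 of 4 epithelial, 0 of 3 endothelial, 2 of 4 leukocyte and 2 of 4 skeletal muscle markers, and for 9774 of all 19088 genes. The leukocyte markers Cd68 and Csf1r were not measured. Genes with many spots reach this more easily: Col1a1 and Fn1 had 11 never dim spots each and Myod1 and Des 10 each. The fibroblast markers Vim and Thy1 had 0.

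No gene of complexes II to V passed the test of the line difference, made in limma with a dye term and Benjamini-Hochberg adjustment over all genes. The adjusted p was 0.9997 for each of the 50, and 0 of 19088 genes (0%) passed. At an unadjusted p under 0.05 there were 2 members, Cox5b and Uqcrq, which is near the 3.64% of all genes, or the 6.13% of genes with a never dim spot. Both were negative, as were 2.05% of all genes at that p. When only never dim spots were used there were 0 such members, against 2.76% of the genes so fitted. Cox5b, whose 1 spot was never dim, kept its mean of -0.29 there, with an unadjusted p of 0.057, and the mean of Uqcrq was -0.17. Without replicate 1 there were 11 such members, against 8.27% of all genes. There was 1 without replicate 2, against 2.23%, and there were 4 without replicate 3, against 8.27%. The mean log2 ratio was positive for 24 members and negative for 26, with a median of -0.02, against -0.001 over all genes. Member means lay between -0.29 and 0.23.

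Over the 50 members, the median half-width of the 95% interval was 0.24 on the log2 scale. For 45 of the 50 members the interval lay within 0.585 on either side of 0, which is 1.5-fold. This held for 91.4% of all genes and 84.2% of genes with a never dim spot. The members whose interval reached beyond that bound were Cox5a, from -0.76 to 0.32, Atp5c1, from -0.23 to 0.70, Atp5e, from -0.63 to 0.23, Atp5j2, from -0.60 to 0.14, and Atp5k, from -0.68 to 0.58.

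**Figure D1:**
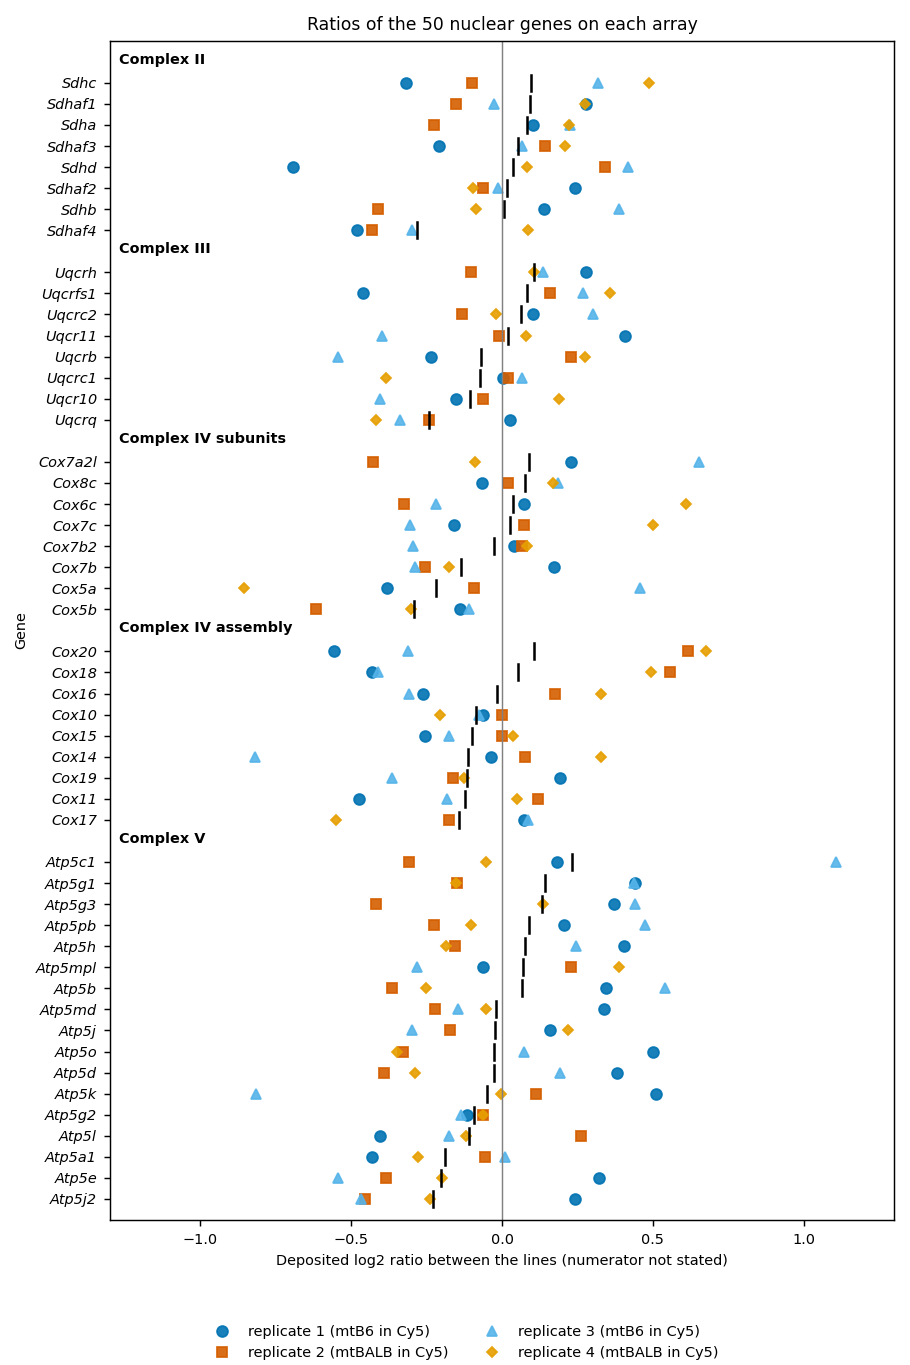
Deposited log2 ratio (horizontal axis) of each of the 50 genes (rows, by complex and mean) on the 4 arrays. Symbols are arrays and the black bar is the mean over the 4. Most genes have arrays on both sides of 0, and Cox5b, Cox10 and Atp5g2 have all 4 below it.

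In complex II, 7 of 8 genes had a positive mean and 0 passed the test. Over all 19088 genes, 9435 had a positive mean, and a leaning of these 8 genes was not tested. Sdha, the subunit that oxidizes succinate on its bound FAD, had log2 ratios of 0.10, -0.22, 0.23 and 0.22 on replicates 1 to 4, with a mean of 0.08 ± 0.21 (SD over the arrays, n = 4, as for all means below). The iron-sulfur subunit Sdhb had 0.14, -0.41, 0.39 and -0.09, a mean of 0.01 ± 0.34. Both were above 0 on replicates 1 and 3 and below 0 on replicate 2. The membrane anchors Sdhc and Sdhd, which bind ubiquinone and heme, had means of 0.10 ± 0.37 and 0.04 ± 0.51. Sdhd had the widest spread of the complex, with -0.69 on replicate 1 and 0.42 on replicate 3. The assembly factors Sdhaf1 and Sdhaf3, which help the iron-sulfur subunit mature, had means of 0.09 ± 0.22 and 0.05 ± 0.18. Sdhaf2, which attaches FAD to Sdha, had 0.02 ± 0.15.

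Sdhaf4, an assembly factor that binds Sdha once FAD is attached, was the only member of complex II with a negative mean. It had -0.48, -0.43, -0.30 and 0.09 on replicates 1 to 4, with a mean of -0.28 ± 0.26 and an unadjusted p of 0.0562 in limma. Replicate 4 lay on the other side of 0 from the rest.

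In complex III, 4 of 8 genes had a positive mean and 4 a negative one. The core proteins Uqcrc1 and Uqcrc2 had means of -0.07 ± 0.21 and 0.06 ± 0.19. Uqcrfs1, the Rieske iron-sulfur protein that takes electrons from ubiquinol, had -0.46, 0.16, 0.27 and 0.36 on replicates 1 to 4, with a mean of 0.08 ± 0.37. Only replicate 1 was below 0. The hinge subunit Uqcrh had 0.10 ± 0.16, and the small subunits Uqcr10 and Uqcr11 had -0.11 ± 0.24 and 0.02 ± 0.33. Uqcr11 spread from -0.40 on replicate 3 to 0.41 on replicate 1.

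The small subunit Uqcrq had 0.03, -0.24, -0.34 and -0.42 on replicates 1 to 4, with a mean of -0.24 ± 0.19 and an unadjusted p of 0.0473 in limma. Its negative mean rests in part on a spot that was dim on 2 arrays, with a mean of -0.32. The never dim spot had 0.24, -0.31, 0.01 and -0.62, a mean of -0.17, and so lay on both sides of 0.

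In complex IV, 6 of 17 genes had a positive mean. Cox5b, a zinc-binding subunit on the matrix side of cytochrome oxidase, had -0.14, -0.62, -0.11 and -0.30 on replicates 1 to 4, with a mean of -0.29 ± 0.23 and an unadjusted p of 0.0167 in limma and a 95% interval from -0.50 to -0.08. All 4 arrays were below 0, and replicates 2 and 4, where mtBALB RNA carried Cy5, were the lowest. With ratios taken as not turned its mean was 0.17, with an unadjusted p of 0.090. Its neighbour on the matrix side, Cox5a, had -0.38, -0.09, 0.46 and -0.85, a mean of -0.22 ± 0.55, so that the arrays of this subunit lay far apart.

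The other subunits showed no shared side. Cox7b had -0.14 ± 0.21, Cox7c had 0.03 ± 0.35 and Cox6c had 0.04 ± 0.42, the last with 0.61 on replicate 4. Cox7b2 and Cox8c, forms known from testis, had -0.03 ± 0.18 and 0.08 ± 0.12 from spots that were dim on every array. Cox7a2l, which joins complex IV to complex III in supercomplexes, had 0.23, -0.43, 0.65 and -0.09, a mean of 0.09 ± 0.46. A shorter form of its protein is known in C57BL/6 mice, and which form these lines hold was not tested. The gene is nuclear, and both lines are named for the same LMEB3 recipient.

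Of the 9 assembly factors of complex IV, 7 had a negative mean, with a median of -0.10. Over all 19088 genes, 9646 had a negative mean, and a leaning of this small group was not tested. Cox10 and Cox15, which make heme A, had means of -0.09 ± 0.09 and -0.10 ± 0.14. Cox10 had -0.06, -0.00, -0.08 and -0.20 on the 4 arrays and was, with Cox5b and Atp5g2, 1 of 3 members with the same sign on every array (3 of 50, against 9.02% of all genes). The copper factors Cox11, Cox17 and Cox19 had -0.12 ± 0.27, -0.14 ± 0.30 and -0.11 ± 0.23. Cox14, a partner of newly made mitochondrial COX1, had -0.11 ± 0.49 with -0.82 on replicate 3. Without that array its values lay between -0.04 and 0.33.

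In complex V, 7 of 17 genes had a positive mean. The catalytic head is made of the alpha and beta subunits Atp5a1 and Atp5b with the gamma, delta and epsilon subunits Atp5c1, Atp5d and Atp5e. Atp5c1, the rotating shaft, had 0.18, -0.31, 1.11 and -0.05 on replicates 1 to 4, with a mean of 0.23 ± 0.62 and the widest range between arrays of the 50 genes, 1.42 (by SD, Cox20 was wider). Replicate 3 lay far above the other arrays, of which replicates 2 and 4 were below 0. Atp5b had 0.34, -0.37, 0.54 and -0.25, a mean of 0.07 ± 0.44, and Atp5d had 0.38, -0.39, 0.19 and -0.29, a mean of -0.03 ± 0.37. Both were above 0 on replicates 1 and 3 and below 0 on replicates 2 and 4. Atp5a1 and Atp5e had -0.19 ± 0.20 and -0.20 ± 0.38.

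Atp5g1, Atp5g2 and Atp5g3 encode precursors of the same mature subunit c, which forms the rotor ring in the membrane. Atp5g1 had 0.44, -0.15, 0.44 and -0.15 on replicates 1 to 4, with a mean of 0.14 ± 0.34 and an unadjusted p of 0.0571 in limma. With ratios taken as not turned its mean was 0.29, with an unadjusted p of 0.00489. Atp5g3 had 0.37, -0.42, 0.44 and 0.13, a mean of 0.13 ± 0.39. Atp5g2 had -0.12, -0.06, -0.13 and -0.06, a mean of -0.09 ± 0.04, the narrowest spread of the 50 genes. Its 2 spots moved against each other, with -0.23 and 0.07 on replicates 1 and 2 for the spot with a mean of -0.03 and -0.00 and -0.19 for the other. The difference between the 3 genes was not tested.

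The stalk and membrane subunits of complex V had means on both sides of 0. The stalk subunits Atp5pb, Atp5h, Atp5j and Atp5o had 0.09 ± 0.32, 0.08 ± 0.29, -0.02 ± 0.25 and -0.03 ± 0.40. The small membrane subunits Atp5j2, Atp5k and Atp5l had -0.23 ± 0.33, -0.05 ± 0.56 and -0.11 ± 0.28. Atp5k, subunit e of the dimer interface, had 0.51 on replicate 1 and -0.82 on replicate 3. Atp5md and Atp5mpl, small proteins of the same region, had -0.02 ± 0.25 and 0.07 ± 0.30.

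More members reached an unadjusted p under 0.05 for the part of the ratio that changes sign with the dye orientation than for the line difference. This dye term comes from the same limma fit and is positive where the ratio is higher on replicates 1 and 3. At an unadjusted p under 0.05 there were 15 of 50 members, against 8.98% of all genes and 9.86% of genes with a never dim spot. With only never dim spots there were 7 of 47 members, against 4.47% of the genes so fitted, and 8 of 50 without replicate 2 or without replicate 4, against 3.61% and 4.63% of all genes in those fits. None passed after adjustment over all genes (0% of 19088 genes passed), with adjusted p-values from 0.545 to 0.982. The sign alternated with the orientation in 20 of 50 members, against 21.3% of all genes and 15.4% of genes with a never dim spot. Replicates 1 and 3 differ from 2 and 4 also in their cultures, so that dye orientation and these pairs of cultures cannot be told apart.

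The side of the dye term was not the same in every complex, although a difference between complexes was not tested. In the fit with all spots and at an unadjusted p under 0.05, it was positive for 902 and negative for 812 of all 19088 genes. In complex V it was positive for 6 of 17 members and negative for 1 at that p. Among the 9 complex IV assembly factors it was negative for 4 and positive for 0. Cox18, Cox20 and Cox16, which all act on the insertion and maturation of the mitochondrially encoded subunit COX2, were among these 4, with the copper factor Cox11, which had -0.47, 0.12, -0.18 and 0.05 on replicates 1 to 4. Cox18 had -0.43, 0.56, -0.41 and 0.50 on replicates 1 to 4, with a mean of 0.05 ± 0.55 and a dye term of -0.47 (95% interval -0.63 to -0.32, unadjusted p = 0.000786 in limma). Cox20 had -0.56, 0.62, -0.31 and 0.68, a mean of 0.11 ± 0.63 and a dye term of -0.54 (95% interval -0.73 to -0.35). Cox16 had -0.26, 0.18, -0.31 and 0.33, a mean of -0.02 ± 0.32 and a dye term of -0.27. In each of these 3 genes, replicates 1 and 3 were below 0 and replicates 2 and 4 above it.

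On the other side, the complex V members were Atp5b, Atp5d, Atp5g1, Atp5pb, Atp5h and Atp5o, with dye terms from 0.25 to 0.38. All 6 were above 0 on replicates 1 and 3 and below 0 on replicates 2 and 4. The dye term of Atp5b was 0.38 (95% interval 0.19 to 0.56, unadjusted p = 0.00407 in limma). With only its never dim spots it was 0.32, with an unadjusted p of 0.087 in limma. Atp5o had no never dim spot. Atp5mpl was the 1 member of complex V with a negative dye term at an unadjusted p under 0.05, at -0.24. Outside these groups, Uqcrb of complex III had -0.32 and Cox7c had -0.26, while Sdhb had 0.26 and Cox7a2l had 0.35. Uqcrb, a small subunit near the ubiquinone site, had -0.24, 0.23, -0.54 and 0.27 on replicates 1 to 4 and a mean of -0.07 ± 0.39.

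**Figure D2:**
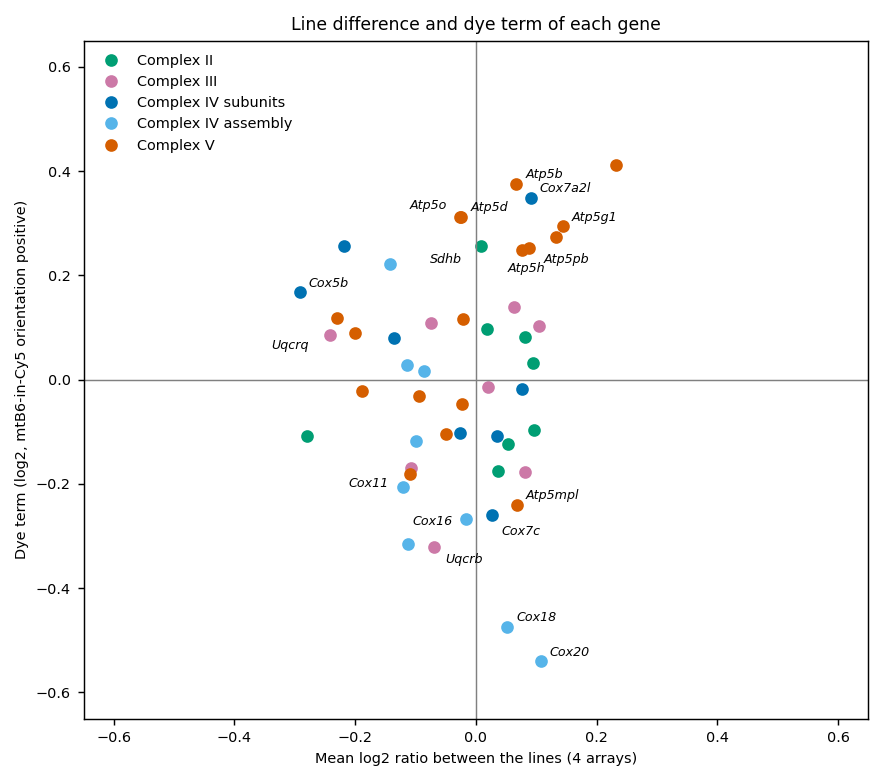
Mean log2 ratio between the lines (horizontal axis) against the dye term (vertical axis, log2, positive for the orientation with mtB6 in Cy5) for each of the 50 genes, coloured by complex. Names mark genes with an unadjusted p under 0.05 for either. Points spread further along the dye axis, from -0.54 for Cox20 to 0.41 for Atp5c1, than along the line axis.

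The array medians of the complexes did not run in parallel. Complex V had medians of 0.32, -0.22, 0.01 and -0.12 on replicates 1 to 4, and its catalytic head 0.32, -0.37, 0.19 and -0.25. The complex IV assembly factors had -0.26, 0.08, -0.31 and 0.05, on the opposite side of the catalytic head on each array. Complex II had -0.05, -0.13, 0.15 and 0.15 and complex III 0.01, -0.04, -0.14 and 0.09, which follow neither pattern. The subunits of complex IV had -0.01, -0.17, -0.16 and -0.00. Over all genes the array medians lay between -0.006 and 0.0039. The spread of the 50 genes, as the SD over genes on an array, was 0.31, 0.26, 0.39 and 0.30, against 0.41, 0.33, 0.39 and 0.28 for genes with a never dim spot.

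Beside these stood other gene groups of the same arrays. The 43 nuclear genes of complex I had medians of 0.14, -0.12, 0.03 and 0.16 and 7 members (16.3%) with an unadjusted p under 0.05 for the dye term. The 78 mitochondrial ribosomal protein genes had 0.07, 0.02, -0.09 and 0.02 and 8 such members (10.3%). That share is near the 8.98% of all genes and the 9.86% of genes with a never dim spot. The 76 cytosolic ribosomal protein genes had 0.19, -0.36, 0.06 and -0.29 and 35 such members (46.1%), all with a positive dye term. The 10 left-out cytochrome oxidase isoforms had -0.07, -0.11, -0.03 and -0.14, with 3 such members (30%). Differences between these groups were not tested.

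**Figure D3:**
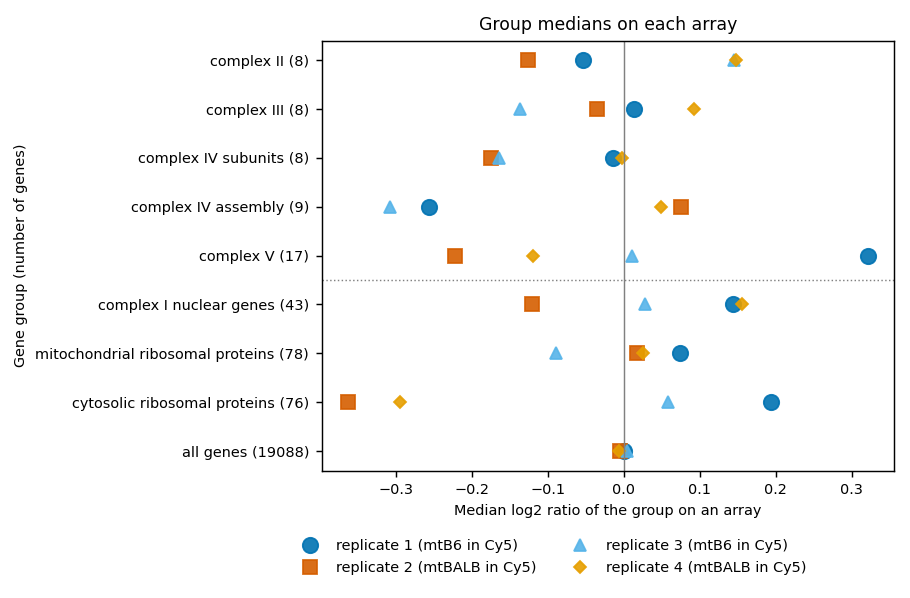
Median log2 ratio of each gene group (rows, with the number of genes) on each of the 4 arrays (symbols). The complex IV assembly factors lie below 0 on replicates 1 and 3 and above it on replicates 2 and 4, complex V and the cytosolic ribosomal proteins lie the other way, and all genes lie near 0.

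Several spots per gene allowed a check within an array. Of 16 members with more than 1 spot, 7 had spot means on both sides of 0, namely Sdha, Sdhaf2, Sdhaf3, Cox16, Atp5a1, Atp5b and Atp5pb, and 6 had spot dye terms on both sides of 0. The 2 spots of Cox18 gave nearly the same values, with -0.42, 0.53, -0.39 and 0.48 for the first and -0.44, 0.58, -0.44 and 0.51 for the other. Of the 5 spots of Cox16, all had a dye term below 0, from -0.47 to -0.07, and the weakest was dim on every array. The 4 spots of Atp5pb, a stalk subunit, had dye terms from 0.10 to 0.34.

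Other genes had spots that disagreed. The 3 never dim spots of Atp5a1 had -1.26, 0.43 and 0.86 on replicate 3, and their means were -0.57, -0.02 and 0.02. Its value of 0.01 on that array is therefore an average of spots far apart. Of the spots of Sdha, the never dim ones had means of 0.14 and 0.42 and the one dim on 3 arrays had -0.31. The dye term of Atp5b was 0.23 and 0.42 on its never dim spots and 0.48 on the spot that was dim on 1 array.

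**Figure D4:**
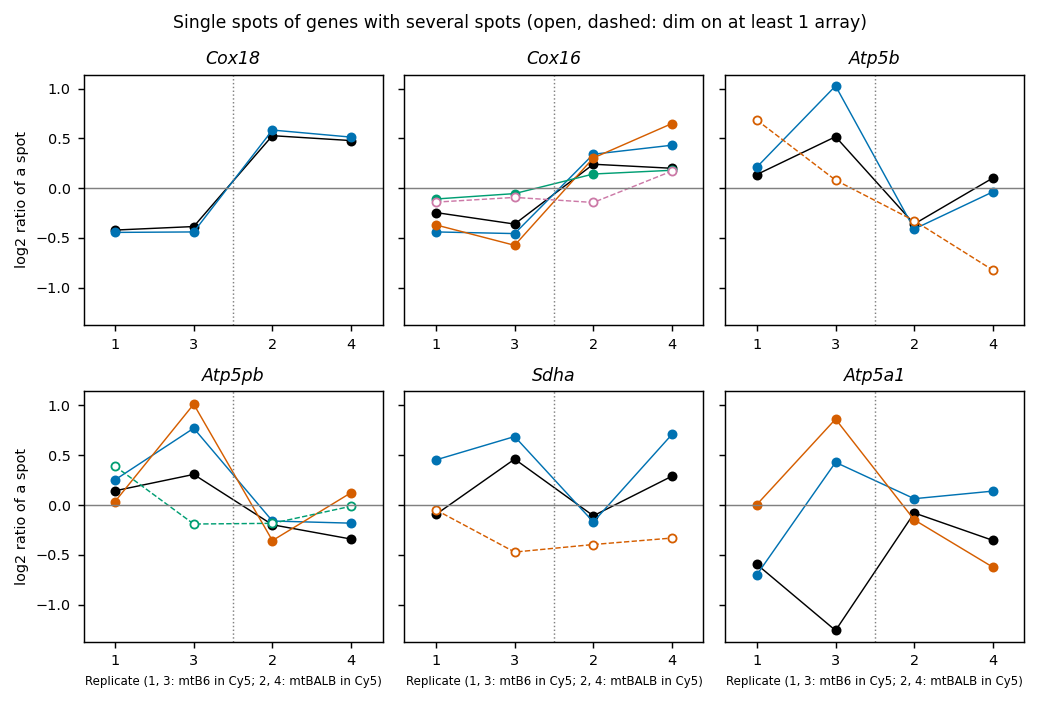
Log2 ratio (vertical axis) of every spot of 6 genes on the arrays, ordered by dye orientation with replicates 1 and 3 left of the dotted line and 2 and 4 right of it. Each line is a spot, and open symbols with dashed lines are spots dim on at least 1 array. The spots of Cox18 coincide, and those of Atp5a1 spread from -1.26 to 0.86 on replicate 3.

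Other genes of these complexes that the symbols miss gave the same count on both sides. Of 33 listed, 2 are the members Atp5md and Atp5mpl under older symbols, and 28 others were measured, with 14 positive and 14 negative means. None passed after adjustment, and 1 of the 28 had an unadjusted p under 0.05, near the 3.64% of all genes. This was Cycs, cytochrome c, which carries electrons between complexes III and IV, with 0.21, 0.23, 0.97 and 0.38 on replicates 1 to 4, with a mean of 0.45 ± 0.36. All 4 arrays were above 0. Cyc1, the cytochrome c1 of complex III, had 0.47, -0.35, 0.45 and 0.03 and a dye term of 0.31. Sco1, a copper factor of COX2, had -0.24, 0.11, -0.17 and 0.46 and a dye term of -0.25. Cmc1, listed with complex IV, had -0.89, 0.52, -0.25 and 0.01 and a dye term of -0.42. These 3 of the 28 had an unadjusted p under 0.05 for the dye term, near the 8.98% of all genes, and 0 passed after adjustment.

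Promoter sequence was examined as a feature that the choice by symbol did not use. NRF1 and ETS factors of the GABP kind are known activators of nuclear respiratory genes, and their motifs were searched on both strands in the 250 bases before the gene start, in RefSeq promoters of GRCm38.p6 that 40 of the 50 genes matched. The NRF1 motif, GCGCA followed by any base and GCGC, was found in 6 of 40 members, or 15%, against 4.23% of the 27025 genes of the table, which also holds genes other than protein-coding ones. The 6 stretches are shown as the members' copies of this motif, with the motif in capitals, each 5′ to 3′ along the gene.
Atp5c1, chr2:10080433-10080462, minus strand: cgcctgagctcccGCGCACGCGCactgagt
Atp5g2, chr15:102671070-102671099, minus strand: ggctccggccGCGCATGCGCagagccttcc
Atp5h, chr11:115420041-115420070, minus strand: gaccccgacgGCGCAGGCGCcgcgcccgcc
Atp5k, chr5:108434430-108434459, minus strand: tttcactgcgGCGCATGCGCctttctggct
Sdha, chr13:74350319-74350348, minus strand: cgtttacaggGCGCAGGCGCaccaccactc
Sdhd, chr9:50603909-50603938, minus strand: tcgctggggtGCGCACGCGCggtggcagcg
Sdha had 3 matches, of which the first is shown. The ETS motif CCGGAAGT, or ACTTCCGG on the other strand, was found in 5 of 40 members, or 12.5%, against 3.23% of genes, and is in capitals below.
Atp5h, chr11:115419940-115419969, minus strand: ccaaggagagaACTTCCGGcaactctcttc
Cox10, chr11:64079481-64079510, minus strand: agcgctgggagCCGGAAGTgacaagaggaa
Cox16, chr12:81485138-81485167, minus strand: gctcagaagcctcgACTTCCGGgggaggga
Uqcr11, chr10:80406869-80406898, minus strand: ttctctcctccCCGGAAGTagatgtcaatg
Uqcrh, chr4:116075071-116075100, minus strand: actacgaggagtatgccgcACTTCCGGcca
Atp5h held both motifs. The motif AAGATGGCG of YY1 was found in 1 of 40 members, Atp5j, or 2.5%, against 0.71% of genes. A match is a run of letters and not a shown binding site. The genes with the NRF1 motif had mean log2 ratios between -0.09 (Atp5g2) and 0.23 (Atp5c1), and those with the ETS motif between -0.09 (Cox10) and 0.10 (Uqcrh).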

How the data were processed

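RNA of 4 pairs of mtBALB and mtB6 cybrid cultures was measured on 4 two-colour Agilent arrays. The deposited values are the authors' log ratios, taken as log2, 1 per spot and array. Limma is named without a version in the submitters' processing notes. How background was corrected and arrays were normalized, the log base and the numerator are not given there. Spot intensities were not analysed here, and the small number of arrays limits precision.

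Of 171 spots with no gene and a log2 ratio of 0.6 or more in size on every array, 163 alternated with the orientation and 0 kept 1 sign. Spike-in controls of two-colour arrays follow the dye, and would alternate only in ratios turned to 1 direction, so the ratios were taken as turned, with the opposite as an alternative. That these spots are such controls is not stated, and spots with a line difference would also alternate in ratios not turned. Over all spots, arrays of opposite orientation correlated at -0.241 to -0.172, replicates 1 and 3 at -0.002 and replicates 2 and 4 at 0.274. Over genes, opposite orientations gave -0.124 to 0.049, replicates 1 and 3 gave -0.186 and replicates 2 and 4 gave 0.041, so correlations do not settle the direction.

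Of 45220 spots, 33653 had 1 gene in the platform annotation, 56 several and 11511 none. Symbols were updated through gene IDs (RefSeq, GRCm38.p6, 18966 of 19088 genes). The spots of a gene were averaged. In limma 3.58.1 (R 4.3.3), lmFit and eBayes were run over all genes on the mean ratio and a dye term, with Benjamini-Hochberg adjustment and a threshold of 0.05. The fit leaves 2 residual degrees of freedom per gene. It was tested on simulated data. SD values include the dye effect. The p-values rest on the spread between arrays of the same dye orientation, moderated by eBayes over all genes. Differences between cultures, labelling and arrays are not separated in that spread.

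The members, lists, rule for named genes (in each complex the smallest p on each side and the widest spread, core subunits, the 3 smallest dye p-values, Atp5g genes, genes whose spots disagree) and alternatives were chosen with earlier results of these data known.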

Additional observations from a re-analysis of the deposited data

Results flagged for a closer look

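Among the 50 genes, 2 had 1 array far from the other 3 by Dixon's criterion for 4 samples, where chance marks about 1 in 20. Uqcrc1, a core protein of complex III, had a log2 ratio of -0.38 on replicate 4 and values between 0.00 and 0.07 on the others. These are averages of 2 never dim spots, which lay further apart. The spots had -0.09 and 0.13 on replicate 2, 0.25 and -0.12 on replicate 3, and -0.44 and -0.33 on replicate 4. Cox7b2, measured by a spot that was dim on every array, had -0.30 on replicate 3 and values between 0.04 and 0.08 on the others. Among spots that carry no gene in the annotation, 163 had log2 ratios of 0.6 or more in size on every array, with a sign that alternated with the dye orientation.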

How the results depend on the processing

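No member passed an adjusted p of 0.05 for the line difference or the dye term under any alternative run, and the median line difference of the 50 genes stayed between -0.04 and 0.02. The number of members with an unadjusted p under 0.05 for the line difference, 2 with all arrays, was 0 with only never dim spots (2.76% of all genes so fitted), 1 with arrays centred on never dim spots (3.56%), 4 of 77 when each spot was fitted on its own (3.53% of all spots), and between 1 and 11 when 1 replicate was left out (2.23% to 8.27%). For the dye term the 15 members became 7 of 47 with only never dim spots (4.47%) and lay between 8 and 16 when 1 replicate was left out (3.61% to 12%). With ratios taken as not turned, the dye term becomes the line difference, and 15 members had an unadjusted p under 0.05 (8.98% of all genes). Read so, 20 had 1 sign on all arrays (21.3% of all genes) and 3 alternated (9.02%). The means of Cox5b and Uqcrq turned to 0.17 and 0.0858. The smallest adjusted p over all genes was then 0.545. The means of Cox5b and Uqcrq stayed negative in the other alternatives run on genes. The causes of these shifts were not tested. With 4 arrays, signal over background unknown and spots of 1 gene that disagree, differences within the intervals given could not be resolved.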
